A study of Mus musculus with 34 samples.

Results

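The nuclear receptor gene Ppara and 7 genes of fatty acid oxidation (Ehhadh, Cpt1a, Acadm, Abcd3, Nudt7, Pdk4 and Fgf21) were followed in the livers of mouse pups whose thyroid hormone levels had been perturbed for a short time. These 8 genes were measured by 13 of the 41174 probes of the array. Probes were assigned to these genes by their RefSeq accession, and each probe is given separately. Abcd3 and Nudt7 were chosen by their measured response to thyroid state in these same arrays, so their treatment values are given below as a description without a test. The other 6 genes were included for their place in the pathway, with earlier results of these data known.

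Each array compared liver RNA of 1 C57BL/6 pup at postnatal day (PND) 15, labelled with Cy5, with a universal mouse reference RNA, labelled with Cy3. Control pups had untreated dams and a saline injection. Hypo pups had dams that drank methimazole and sodium perchlorate for 3 days, agents that block thyroid hormone synthesis and iodide uptake, and also received saline. Hyper pups had untreated dams and received an injection of the thyroid hormones T4 and T3. Hypo+ pups had goitrogen-treated dams and received a smaller hormone injection. All injections were given 4 hours before the livers were collected. Of the 34 pups, 4 males and 4 females were controls, 4 males and 5 females were hypo, 5 of each sex were hyper, and 4 males and 3 females were hypo+. The study had divided the hypo+ pups by serum T4, and those with much higher T4 were not analysed here. Pups are named by the animal numbers of the labels. Their first digits appear to mark litters, which were shared between the sexes, so that 20 litters were inferred.

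PPAR alpha, the product of Ppara, is a nuclear receptor that binds fatty acids and, as a partner of RXR, switches on genes of fatty acid breakdown in the liver during fasting and suckling. Suckling pups live on milk fat, and their livers oxidize fatty acids in mitochondria and peroxisomes and send out ketone bodies. Thyroid hormone receptors also act as partners of RXR, and thyroid hormone is known to raise fatty acid oxidation in the liver. Both receptor pairs bind repeats of similar half-sites, which differ in the spacing between the repeats.

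The stretches upstream of 4 of the genes are shown so that those whose probes moved with thyroid state (Abcd3 and Nudt7) can be set beside a peroxisomal and a mitochondrial enzyme gene whose probes did not pass the test (Ehhadh and Acadm). The sequences are the 250 bases before the annotated gene start from the RefSeq promoter tables (build GRCm38.p6), read 5′ to 3′ on the strand of the gene. They cover chr3:121815303-121815552 (minus strand) for Abcd3, chr8:114133324-114133573 (plus strand) for Nudt7, chr16:21787835-21788084 (minus strand) for Ehhadh and chr3:153944644-153944893 (minus strand) for Acadm. Capitals mark matches to the half-site AGGNCA on either strand.
Abcd3: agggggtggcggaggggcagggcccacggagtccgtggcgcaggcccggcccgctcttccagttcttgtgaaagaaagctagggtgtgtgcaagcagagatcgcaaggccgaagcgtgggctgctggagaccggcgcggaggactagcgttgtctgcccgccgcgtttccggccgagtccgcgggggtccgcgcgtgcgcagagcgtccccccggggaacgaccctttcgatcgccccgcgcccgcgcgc
Nudt7: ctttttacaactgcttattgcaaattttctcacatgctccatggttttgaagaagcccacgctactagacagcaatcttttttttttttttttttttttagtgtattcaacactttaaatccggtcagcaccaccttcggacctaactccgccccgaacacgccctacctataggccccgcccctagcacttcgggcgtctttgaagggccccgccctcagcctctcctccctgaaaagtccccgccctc
Ehhadh: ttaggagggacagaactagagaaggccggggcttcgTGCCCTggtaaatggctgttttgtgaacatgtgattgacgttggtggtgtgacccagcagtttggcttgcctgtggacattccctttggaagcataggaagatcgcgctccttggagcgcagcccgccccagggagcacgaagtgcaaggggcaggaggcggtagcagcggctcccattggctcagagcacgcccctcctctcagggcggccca
Acadm: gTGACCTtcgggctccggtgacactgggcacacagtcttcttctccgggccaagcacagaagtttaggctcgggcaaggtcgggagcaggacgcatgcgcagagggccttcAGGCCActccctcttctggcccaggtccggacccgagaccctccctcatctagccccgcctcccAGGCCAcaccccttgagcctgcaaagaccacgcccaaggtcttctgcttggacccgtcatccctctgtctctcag

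Within these 250 bases, AGGNCA matched 0 times in Abcd3, 0 times in Nudt7, 1 time in Ehhadh and 3 times in Acadm, of which 1 was the half-site AGGTCA, a form that AGGNCA includes. Of 32851 promoter windows of 27025 genes, 51.3% held AGGNCA in the same 250 bases and 14.0% held AGGTCA, so that the presence or absence of a match set none of the 4 genes apart. Abcd3 and Nudt7 have a further annotated start each, and the other Abcd3 window held 1 match, 38 bases before its start, and the other Nudt7 window 0. A direct repeat of AGGNCA with a spacer of 1 base (DR1, the form that PPAR alpha and RXR bind) lay in 0.381% of all windows of 250 bases before and 50 after the start, and one with a spacer of 4 bases (DR4, the form that thyroid hormone receptors and RXR bind) in 0.253%. None of the windows of the 8 genes held either. The Abcd3 stretch held 34 CpG, while the Nudt7 stretch (11) was close to those of Ehhadh and Acadm (12 each), where the median over all windows was 6. These are descriptions of the letters in short windows, and nothing about receptor binding was measured.

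Before the 8 genes were compared, the thyroid labels and the tissue were checked. Thrsp and Me1, which serve lipogenesis, and Dio1, the deiodinase that handles T4 and T3 in the liver, served as the check of thyroid state. The mean log2 ratio of the 3 genes lay between 0.56 and 1.75 in hypo pups, between 1.98 and 2.53 in control pups and between 2.58 and 3.29 in hyper pups, with no overlap between these groups, and between 1.89 and 2.82 in hypo+ pups. All 6 measured hepatocyte markers were well above background on every array, with a summed Cy5 signal of 715390 to 954450. Pancreatic acinar markers (12 measured) stood apart on 4 arrays, with a mean log2 ratio of 4.81 in control male 832, 4.41 in control male 522, 3.74 in control female 831 and 2.43 in hypo+ female 543, against a median of 0.98 over all arrays. Adipocyte markers (6 measured) stood apart on 2 arrays, with 2.11 in hypo male 311 and 1.85 in hyper female 499 against a median of 0.76. The control group thus held 3 of the 4 arrays with high acinar markers, and the median change of that list was -1.45 in hypo and -1.36 in hyper pups relative to control, with 0 of 12 genes called in limma and 12 and 11 at an unadjusted p under 0.05. The summed Cy5 signal of the acinar list ranged from 9581 to 165070 in control, 6426 to 13078 in hypo, 7780 to 18554 in hyper and 6485 to 15895 in hypo+ pups, and that of the adipocyte list from 7757 to 16344, 7091 to 16725, 9906 to 36689 and 6101 to 10301. In any pup at least 9 of the acinar and at least 1 of the adipocyte markers were well above background. Comparisons were therefore repeated without these 6 arrays. For the genes reported here, the values are given where they changed a call in the averages over the sexes. Within a sex, only the counts of calls are given. In such bulk RNA, fewer cells of a type and less RNA per cell cannot be told apart.

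The 13 probes were all well above background in both channels on 34 of 34 arrays, and no spot of theirs was saturated. A log2 ratio states the amount in a pup relative to the reference RNA for the same probe, so that ratios are compared between pups but not between genes or probes. Probes of a gene are numbered by brightness.

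Abcd3 encodes a transporter of the peroxisomal membrane that brings long-chain and branched acyl-CoAs into the organelle. The gene lies on chromosome 3 (121758904 to 121815302, GRCm38.p6) and was measured by 3 probes. All of them were lowest in hypo and highest in hyper pups in both sexes. Averaged over the sexes, probe 1 was 1.49-fold lower in hypo than in control pups (log2 fold change -0.57 ± 0.06, SE) and 1.28-fold higher in hyper than in control pups (0.35 ± 0.06), and it differed from control by 0.10 ± 0.06 in hypo+ pups.

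In males, probe 1 of Abcd3 read 2.95, 3.10, 3.20 and 3.32 in control, 2.35, 2.41, 2.58 and 2.76 in hypo, 3.40, 3.41, 3.42, 3.44 and 3.64 in hyper and 3.09, 3.16, 3.26 and 3.33 in hypo+ pups. In females it read 3.01, 3.04, 3.04 and 3.14 in control, 2.33, 2.46, 2.55, 2.58 and 2.71 in hypo, 3.43, 3.44, 3.45, 3.45 and 3.48 in hyper and 3.17, 3.17 and 3.20 in hypo+ pups. In both sexes every hypo pup lay below and every hyper pup above all control pups. The hypo+ males overlapped the controls, and the hypo+ females all lay just above them. The group means were 3.14 ± 0.15 (SD, n = 4) in control males, 2.52 ± 0.18 (n = 4) in hypo males, 3.46 ± 0.10 (n = 5) in hyper males and 3.21 ± 0.10 (n = 4) in hypo+ males. In females they were 3.06 ± 0.06 (n = 4), 2.53 ± 0.14 (n = 5), 3.45 ± 0.02 (n = 5) and 3.18 ± 0.02 (n = 3).

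The dimmer probes of Abcd3 moved in the same directions with more spread. In the reference channel they were faint, with a median Cy3 signal of 65.75 (probe 2) and 62.5 (probe 3), against 2404.8 for probe 1. Relative to control and averaged over the sexes, probe 2 changed by -0.53 ± 0.11 (hypo), 0.45 ± 0.11 (hyper) and 0.15 ± 0.12 (hypo+). Probe 3 changed by -0.43 ± 0.10, 0.39 ± 0.10 and 0.11 ± 0.11. With the normexp background correction the hypo changes were -0.39 for probe 2 and -0.27 for probe 3. For probe 2, every hypo pup lay below the control pups of its sex, but the lowest hyper male (498, at 1.87) fell below the highest control male (1.88), and hyper female 861 (1.75) lay within the range of the control females (1.58 to 1.77). For probe 3, hypo female 575 (1.29) and hyper female 861 (1.26) both lay within the range of the control females (1.19 to 1.44).

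**Figure D1:**
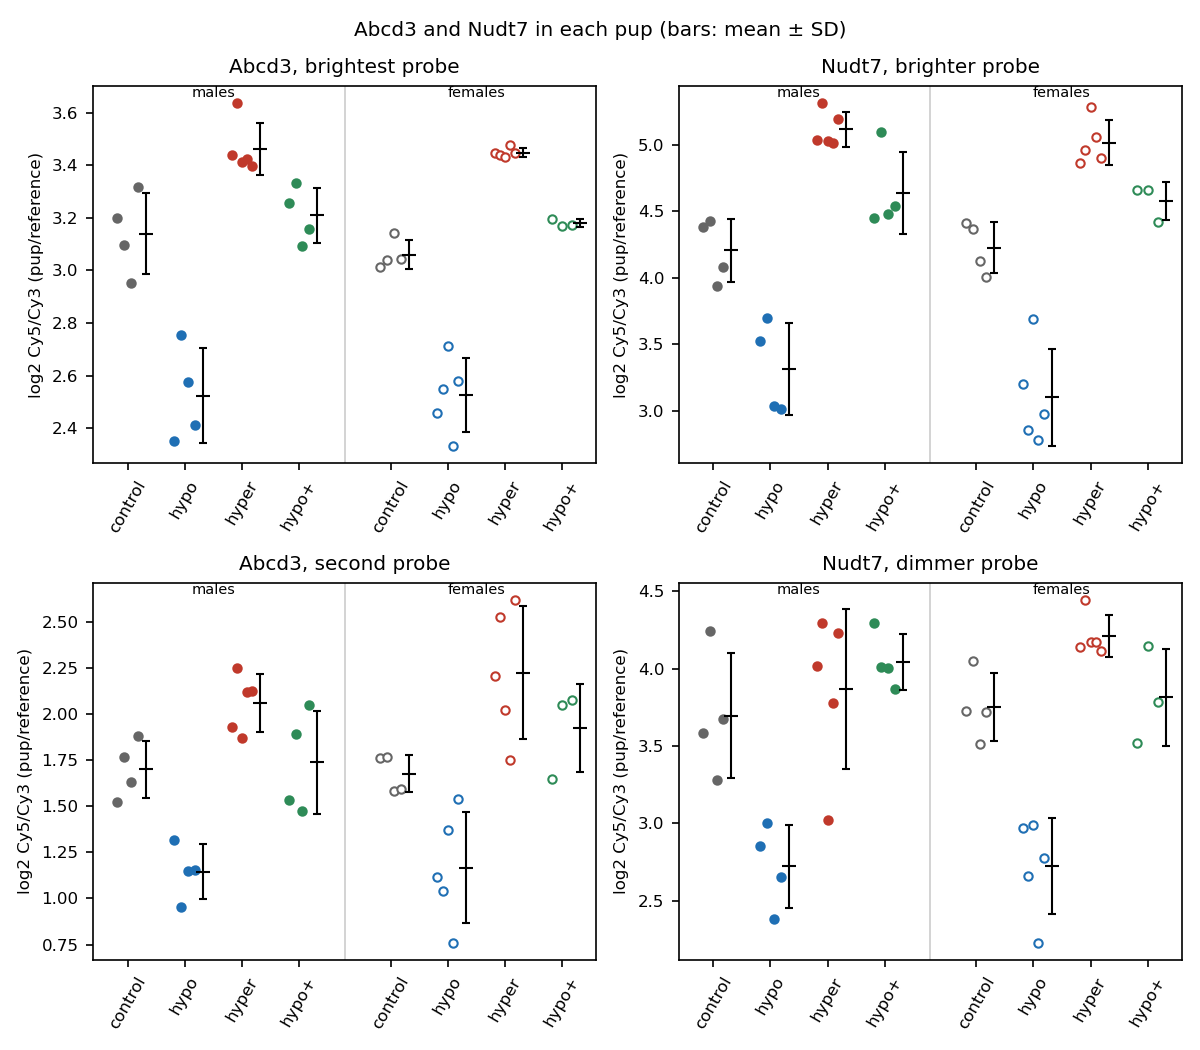
Log2 ratio of pup to reference in each of 34 pups for 2 probes of Abcd3 and both probes of Nudt7. Each point is 1 pup (filled for males, open for females), grouped by treatment on the x axis, and black bars give the mean ± SD. For probe 1 of both genes, all hypo pups lie below and all hyper pups above the control pups of their sex, whereas in the dimmer Nudt7 probe the hyper males (3.02 to 4.30) overlap the control males (3.28 to 4.25).

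Nudt7 encodes a peroxisomal hydrolase that splits coenzyme A and its esters. The gene lies on chromosome 8 (114133574 to 114154731) and was measured by 2 probes. The brighter probe was 2.01-fold lower in hypo pups (-1.01 ± 0.12) and 1.80-fold higher in hyper pups (0.85 ± 0.12) than in controls, averaged over the sexes. It stood 0.39 ± 0.13 above control in hypo+ pups.

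In males, the brighter Nudt7 probe read 3.94, 4.08, 4.38 and 4.43 in control, 3.02, 3.04, 3.52 and 3.70 in hypo, 5.01, 5.03, 5.04, 5.19 and 5.31 in hyper and 4.45, 4.48, 4.54 and 5.10 in hypo+ pups. In females it read 4.01, 4.12, 4.36 and 4.41 in control, 2.78, 2.86, 2.98, 3.20 and 3.69 in hypo, 4.86, 4.90, 4.96, 5.06 and 5.28 in hyper and 4.42, 4.66 and 4.66 in hypo+ pups. In each sex, the 4 groups were ordered hypo, control, hypo+ and hyper, and the only overlap between neighbours was hypo+ male 454 (5.10) within the range of the hyper males. The group means were 4.21 ± 0.24, 3.32 ± 0.35, 5.12 ± 0.13 and 4.64 ± 0.31 for the male groups in the order control, hypo, hyper, hypo+ (SD, n = 4, 4, 5 and 4). In females they were 4.23 ± 0.19, 3.10 ± 0.37, 5.01 ± 0.17 and 4.58 ± 0.14 (SD, n = 4, 5, 5 and 3).

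The probes of Nudt7 disagreed on the size of the hyper change. The dimmer probe fell by 1.00 in hypo pups but stood only 0.31 ± 0.15 above control in hyper pups, and in males the hyper pups (3.02, 3.78, 4.02, 4.23 and 4.30) overlapped the controls (3.28, 3.58, 3.68 and 4.25). With the Cy5 channel alone, in place of the ratio to the reference, its hyper minus control change was 0.89 and that of the brighter probe 1.02. The source of the disagreement was not tested.

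From hypo to hypo+ pups, averaged over the sexes, the 3 Abcd3 probes differed by 0.67 ± 0.06, 0.68 ± 0.12 and 0.53 ± 0.11, and the Nudt7 probes by 1.40 ± 0.13 and 1.20 ± 0.16, which is 2.64-fold for the brighter one. For probe 1 of each gene every hypo+ pup lay above every hypo pup. This contrast shares its hypo pups with the contrast of hypo and control, and the 3 contrasts against control share their control pups, so they are not independent of each other.

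Within slides the directions were the same, which is a description only, since both genes were picked by their response in these same pups. On the slides that held both groups, hypo minus control was below 0 on 7 of 7 slides for Abcd3 probe 1 (-0.84 to -0.34) and for the brighter Nudt7 probe (-1.51 to -0.43). Hyper minus control was above 0 on 8 of 8 slides for both (0.08 to 0.54 and 0.45 to 1.16), and hypo+ minus hypo on 4 of 4 (0.50 to 0.75 and 0.75 to 2.06). Without the 6 arrays with high acinar or adipocyte markers, hypo minus control was -0.65 for Abcd3 probe 1 and -0.95 for the brighter Nudt7 probe. Hyper minus control was 0.30 and 0.82. In these averages over the sexes, Abcd3 lost its hyper minus control calls for probe 1 (adjusted p = 0.053, limma) and probe 2 (0.218). Abcd3 also lost its hypo minus control calls for probe 2 (adjusted p = 0.185, limma) and probe 3 (0.229). The hypo minus control call of Abcd3 probe 1 and the averaged calls of Nudt7 were kept.

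The numbers of the 13 probes that passed the test (limma, Benjamini-Hochberg over all probes) are given with the share of all probes that passed, and since the choice of Abcd3 and Nudt7 used these contrasts, nothing is read from them. All calls were probes of these 2 genes. For hypo minus control, 1 probe was called in males (background 0.0971% of all probes), 3 in females (0.155%) and 5 in the average over the sexes (0.95%). For hyper minus control, 1 was called in males (0.0753%), 1 in females (0.158%) and 3 in the average (0.692%). For hypo+ minus control, limma called 0 in males (0.0267%), 0 in females (0.0219%) and 0 in the average (0.585%), with 1, 0 and 3 probes at an unadjusted p under 0.05. For hypo+ minus hypo, 3 were called in males (0.369%), 3 in females (0.556%) and 5 in the average (2.72%). Single arrays decided some calls within a sex. Without control male 391 or 881 or hypo male 311, the 1 call of hypo minus control in males became 0, and without control female 523 or 882 the 1 call of hyper minus control in females became 0. The 1 call of hyper minus control in males became 0 without any 1 of 11 arrays, which included all control and all hyper males as well as hypo+ males 363 and 761.

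**Figure D2:**
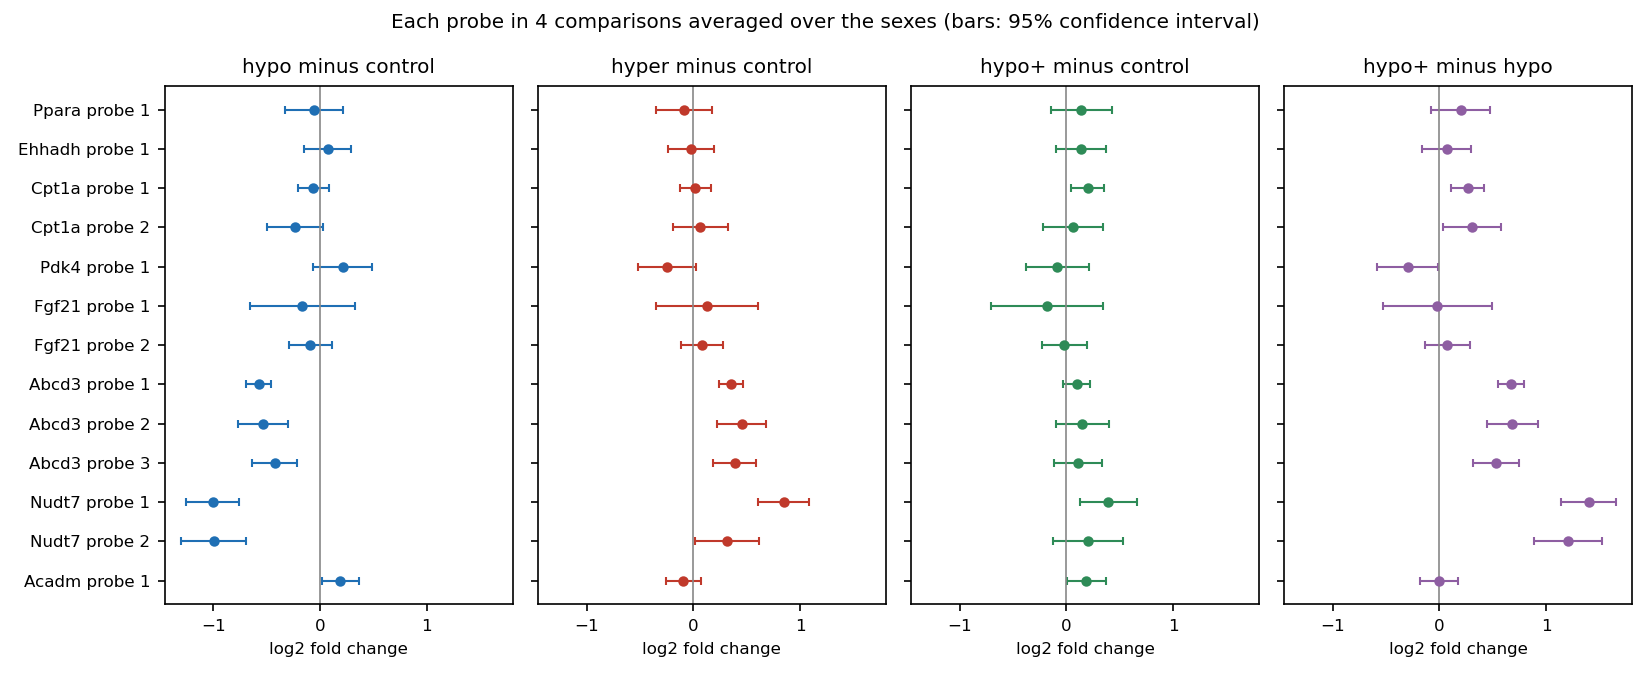
Log2 fold change of each of the 13 probes, averaged over the sexes, in 4 comparisons (x axis), with bars for the 95% confidence interval. The Abcd3 and Nudt7 probes lie left of 0 in hypo minus control (-1.01 to -0.43) and right of 0 in hypo+ minus hypo (0.53 to 1.40), and the other 8 probes lie between -0.30 and 0.30 in all 4 panels.

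The 6 genes included for their place in the pathway gave 0 calls in limma in any comparison, within either sex or averaged. Of all probes, 0.0219% to 0.556% passed in the contrasts within a sex and 0.585% to 2.72% in the averages. A count of 0 among 8 probes is near these shares, and nothing is read from it. Of the 8 probes of these 6 genes, 1, 0, 2 and 3 were at an unadjusted p under 0.05 in the averages for hypo minus control, hyper minus control, hypo+ minus control and hypo+ minus hypo, and 1 in each sex for hypo+ minus hypo. The smallest adjusted p among them was 0.0515. Their intervals bound the size of a change that could have been missed, and for the averaged contrasts against control these intervals lay between -0.71 and 0.61 for Fgf21 probe 1, the most variable probe, and between -0.51 and 0.49 for the others.

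Ppara itself is expressed from chromosome 15 (85734910 to 85806851) and was measured by 1 probe printed 10 times on each array. Its log2 ratio was 3.46, 3.83, 3.85 and 4.23 in control males and 3.66, 3.75, 3.80 and 4.37 in hypo males. In females it was 4.02, 4.03, 4.10 and 4.33 in control and 3.61, 3.85, 3.87, 3.88 and 4.57 in hypo pups. These groups overlapped in both sexes, and the mean difference was small beside the spread. Averaged over the sexes, hypo minus control was -0.06 (95% CI -0.33 to 0.21, adjusted p = 1), hyper minus control -0.09 (-0.35 to 0.17, adjusted p = 1), hypo+ minus control 0.14 (-0.14 to 0.43, adjusted p = 0.843) and hypo+ minus hypo 0.20 (-0.08 to 0.48, adjusted p = 0.609), in limma. Without the 6 arrays with high markers the hypo and hyper differences from control were 0.09 and 0.07 (adjusted p = 1 and 0.991). With the Cy5 channel alone, hypo+ minus hypo was 0.49 and passed the test (adjusted p = 0.0288), whereas the other processing settings gave 0.07 to 0.20 without passing.

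Among the oxidation enzymes, Ehhadh encodes the bifunctional enzyme of peroxisomal beta-oxidation, a textbook PPAR alpha target (chromosome 16, 21761285 to 21787834). Its group means lay between 4.08 and 4.35 in all 8 groups, with SDs of 0.14 to 0.28. The average over the sexes changed by 0.07 in hypo (95% CI -0.15 to 0.29), by -0.02 in hyper (-0.23 to 0.20) and by 0.14 in hypo+ pups (-0.09 to 0.37), with adjusted p = 1, 1 and 0.788 in limma. Acadm, the medium-chain acyl-CoA dehydrogenase of mitochondria (chromosome 3, 153922353 to 153944643), read 2.70, 2.89, 2.97 and 2.97 in control males and 2.90, 3.03, 3.04 and 3.29 in hypo males. In females it read 2.73, 2.79, 3.07 and 3.10 in control and 2.87, 3.04, 3.12, 3.17 and 3.40 in hypo pups. The hypo pups tended to the upper side but overlapped the controls in both sexes, and hypo minus control was 0.19 (0.02 to 0.36, adjusted p = 0.521), opposite in sign to the change of Abcd3 and Nudt7. Hyper minus control was -0.09 ± 0.08 and hypo+ minus control 0.19 ± 0.09 (adjusted p = 1 and 0.479).

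Cpt1a encodes the carnitine palmitoyltransferase that admits long-chain fatty acids to mitochondria (chromosome 19, 3322326 to 3385735) and was measured by 2 probes, the brighter one printed 10 times. The brighter probe read 3.16, 3.18, 3.18 and 3.40 in hypo males and 3.34, 3.41, 3.46 and 3.55 in hypo+ males. In females it read 2.97, 3.14, 3.21, 3.26 and 3.48 in hypo and 3.48, 3.48 and 3.63 in hypo+ pups. Only the highest hypo pup of each sex (576 and 721) reached the hypo+ range. Averaged over the sexes the difference was 0.26 ± 0.07 (SE; 1.20-fold), which just missed the threshold (adjusted p = 0.0515, limma), and the dimmer probe gave 0.30 ± 0.13 (adjusted p = 0.301). The brighter probe passed with the Cy5 channel alone (adjusted p = 0.0298), without the litter term (0.0388), with dim probes left out (0.0443) and with the authors' own values (0.0368), but not with a slide or scan-day term (0.274 and 0.0865). It also passed when any 1 of control male 881, hyper female 585, hyper male 784, hyper male 864, hypo female 721 or hypo male 576 was left out (adjusted p = 0.0168 to 0.0464).

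Pdk4, the kinase that shuts off pyruvate dehydrogenase when fat is burned, lies on chromosome 6 (5483351 to 5496278). Its mean log2 ratio was 2.01 ± 0.13 in control, 2.25 ± 0.20 in hypo, 1.86 ± 0.46 in hyper and 1.76 ± 0.23 in hypo+ males (SD, n = 4, 4, 5 and 4), and 2.10 ± 0.13, 2.28 ± 0.43, 1.76 ± 0.15 and 2.17 ± 0.22 in the same groups of females (n = 4, 5, 5 and 3). The hyper females (1.63, 1.65, 1.70, 1.87 and 1.96) all lay below the control females (1.97, 2.04, 2.12 and 2.27), with a difference of -0.34 ± 0.17 (adjusted p = 0.841, limma). In males the hyper pups fell on both sides of the controls, at 1.43, 1.49, 1.68, 2.35 and 2.37. The hypo+ males (highest 2.05) all lay below the hypo males (lowest 2.06), with a difference of -0.48 ± 0.19 (adjusted p = 0.422, limma). Hypo+ minus hypo of Pdk4 was below 0 on 4 of 4 slides (-1.02 to -0.02). Such a count says little, since Acadm was also below 0 on 4 of 4 (-0.47 to -0.03) with an average over the sexes of -0.0042. The brighter Cpt1a probe was above 0 on 4 of 4, and Ppara, Ehhadh and the brighter Fgf21 probe had both signs. The average of Pdk4 over the sexes changed by 0.21 ± 0.14 in hypo, -0.24 ± 0.13 in hyper and -0.30 ± 0.14 in hypo+ relative to hypo pups (adjusted p = 0.873, 0.877 and 0.361), each opposite in sign to Abcd3 and Nudt7. None of these changes passed, and the contrasts share pups, so their signs are not independent.

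Fgf21, a hormone that the liver secretes under PPAR alpha control, lies on chromosome 7 (45613890 to 45615490). Both probes were dim, with a median Cy5 signal of 324 on the brighter and 168 on the dimmer one. The brighter probe spread widely within groups, from -1.41 to 0.32 in hypo females and from -1.58 to -0.17 in hypo+ males. Its average over the sexes changed by -0.17 ± 0.24 (hypo), 0.13 ± 0.23 (hyper) and -0.19 ± 0.26 (hypo+), and the dimmer probe by -0.09 ± 0.10, 0.08 ± 0.10 and -0.02 ± 0.11. The smallest adjusted p of these averaged contrasts and of hypo+ minus hypo was 0.846 (limma), so that no change was detectable within this spread.

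**Figure D3:**
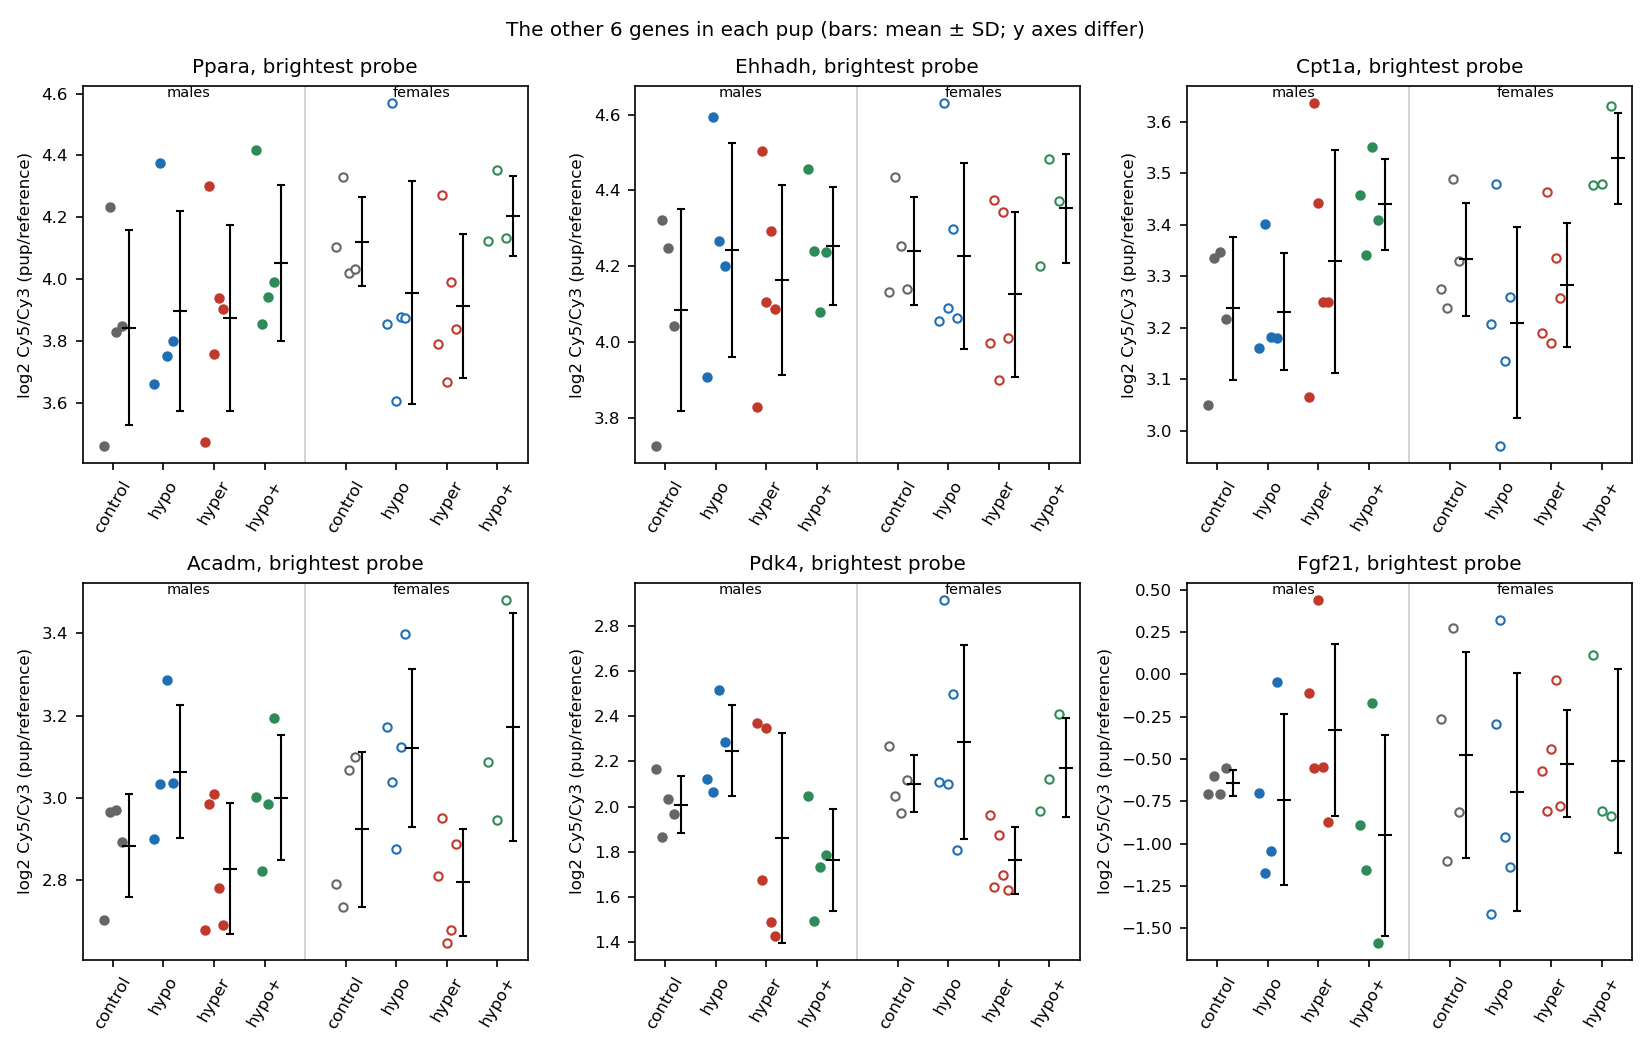
Log2 ratio of pup to reference in each of 34 pups for the brightest probe of Ppara, Ehhadh, Cpt1a, Acadm, Pdk4 and Fgf21, by sex and treatment, with black bars for the mean ± SD (y axes differ between panels). The groups overlap in nearly every panel, and in Ppara and Ehhadh a single pup stands highest in each of the 8 groups, at 4.23 to 4.57 for Ppara.

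Neither sex nor its interaction with treatment moved these genes past the threshold. Female minus male over all treatments called 0 of 13 probes in limma against 0.112% of all probes, with 0 at an unadjusted p under 0.05. The differences lay between -0.09 (Nudt7, brighter probe) and 0.13 (Ppara). The difference between the sexes in each of the 4 contrasts called 0 of 13 probes in limma in each case, against 0% of all probes. At an unadjusted p under 0.05 there were 0 of 13, and the adjusted p of each of the 13 probes was 1. Of all 41174 probes, 534, 633, 656 and 983 were under this unadjusted p for hypo minus control, hyper minus control, hypo+ minus control and hypo+ minus hypo. At such shares 0 of 13 says little. A difference in response between the sexes was thus not detectable with 3 to 5 pups per group.

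Apart from treatment, the pups of a group differed among themselves, and the genes were compared on what was left after each group mean was removed. This measure was not used to choose the genes. Over the 34 pups, 28 pairs of genes were tested with 100000 permutations within groups (two-sided), and 5 pairs passed after Benjamini-Hochberg adjustment. Ppara and Ehhadh went together most closely (Pearson r = 0.90, Spearman rho = 0.83, adjusted p = 0.00028 for both, the smallest that these permutations allow), with r = 0.91 in males, 0.88 in females and 0.86 without the 2 pups farthest from the median of Ppara. Of all probes, 0.568% were as far from 0 in their r with Ppara. Cpt1a went with Ppara (r = 0.73, rho = 0.57, adjusted permutation p = 0.00238 and 0.0216; 0.65 without the 2 farthest pups) and with Ehhadh (r = 0.68, rho = 0.56, adjusted p = 0.00252 and 0.0216; 0.60). It also went with Acadm (r = 0.55, rho = 0.63, adjusted p = 0.0141 and 0.00532; 0.63). Nudt7 and Acadm ran against each other (r = -0.54, rho = -0.53, adjusted p = 0.0169 and 0.0216; -0.44), but with median centring in place of loess, which called 26 of the 28 pairs, they ran together (r = 0.60). The share of all probes as far from 0 was 1.70% for Ppara and Cpt1a, 2.07% for Ehhadh and Cpt1a, 2.98% for Cpt1a and Acadm and 0.840% for Nudt7 and Acadm. With the deposited log10 ratio 6 pairs passed by Pearson's r, these 5 among them, and 2 by rank, where Ppara and Cpt1a (adjusted permutation p = 0.0867), Ehhadh and Cpt1a (0.0768) and Nudt7 and Acadm (0.0867) did not.

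The pair chosen by its treatment response passed under some settings only. Abcd3 and Nudt7 had r = 0.47 and rho = 0.25 within groups (adjusted permutation p = 0.176 and 0.664), and r = 0.26 without the 2 farthest pups, while 1.53% of all probes were as far from 0 in their r with Abcd3. With the deposited log10 ratio r was 0.53 (adjusted permutation p = 0.0424; by rank 0.0907), and with median centring 0.88 (adjusted permutation p = 7e-05). Abcd3 and Ppara had r = 0.21, and Nudt7 and Ppara r = -0.05. Pdk4 and Nudt7 passed by rank (rho = -0.50, adjusted p = 0.0216) but not by Pearson's r (-0.41, adjusted p = 0.176), and with median centring its rho was 0.44.

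Part of the shared variation of Ppara and Ehhadh followed a scan day. On 1 of 6 scan days, 2 slides were scanned that held 1 pup of each of the 8 groups, and on that day Ppara and Ehhadh were each at their group's highest in 8 of 8 groups. Those pups stood above the rest of their group by 0.49 on average for Ppara (0.22 to 0.77) and by 0.34 for Ehhadh (0.20 to 0.50). The dimmer Nudt7 probe was at its highest there in 7 of 8 groups (mean difference 0.39), the brighter Cpt1a probe in 4, and Abcd3 probe 1 in 2. With the scan day removed as well as the group, r was 0.78 for Ppara and Ehhadh, 0.71 for Ppara and Cpt1a and 0.55 for Ehhadh and Cpt1a, and with the slide removed 0.80, 0.68 and 0.51. Over the 26 pups of the other scan days r was 0.74, 0.63 and 0.50. The 8 arrays of that day included 3 of the 4 with high acinar markers. Without the 6 arrays with high acinar or adipocyte markers r was 0.90, 0.79 and 0.72 over 28 pups. That day was singled out after its values were seen. Since it held 1 pup of every group, the treatment contrasts of Ppara were about the same with the scan day as a term, at -0.05 for hypo minus control and -0.09 for hyper minus control.

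**Figure D4:**
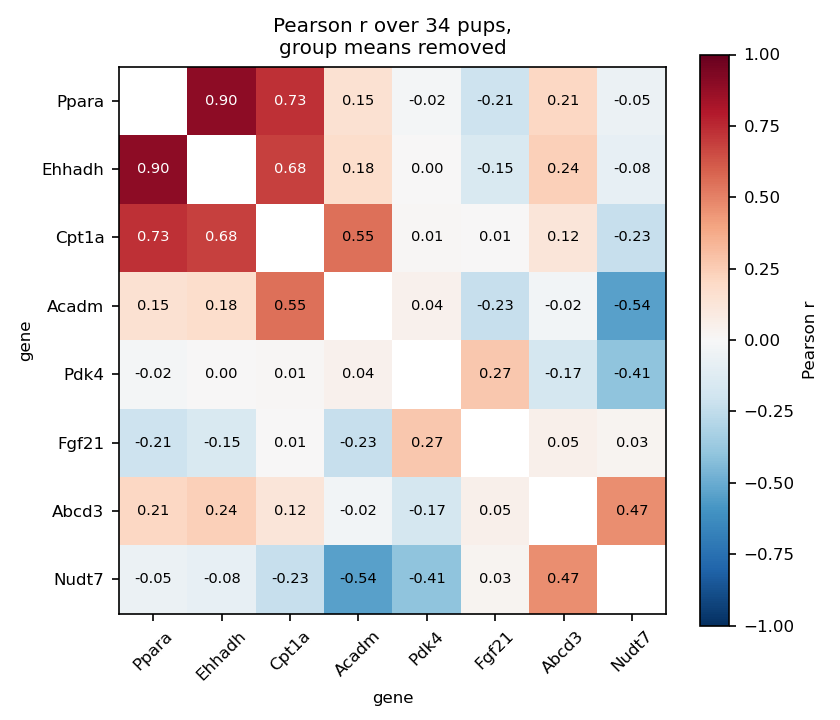
Pearson r between the 8 genes (brightest probe of each) over 34 pups after each group mean was removed, as a matrix with the same genes on both axes and r as colour and number. Ppara, Ehhadh and Cpt1a form a block at 0.68 to 0.90, whereas Abcd3 and Nudt7 are at 0.47 with each other and between -0.23 and 0.24 with these 3 genes.

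Over all 34 pups, treatment included, 22198 probes that were well above background in Cy5 on every array were ranked by how closely they followed probe 1 of Abcd3 and of Nudt7. These values rest on the treatment response by which both genes were picked and describe it. Nudt7 held place 2 for Abcd3 and Abcd3 place 3 for Nudt7 (r = 0.948). The closest other named genes were Slc25a45 (r = 0.924), Sort1 (0.919) and Nsmf (0.916) for Abcd3 and Slc23a1 (0.938) for Nudt7, while the remaining places among the first 5 were held by probes listed under a sequence accession only. At the other end of the ranking, Pdk4 took place 21694 for Abcd3 and 21871 for Nudt7 (r = -0.56 and -0.61), and Acadm place 21180 and 21642 (r = -0.47 and -0.56). Ppara and Ehhadh stood in the middle, with r between -0.12 and 0.05.

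The surrounding pathway was read from 8 lists with 102 genes, of which 100 were measured, with the brightest probe standing for each gene. In the averages over the sexes, limma called 4 of the 100 for hypo minus control (2 higher, 2 lower; 0.95% of all probes). It called 4 for hyper minus control (2 and 2; 0.692%) and 2 for hypo+ minus control (both higher; 0.585%). For hypo+ minus hypo it called 7 (5 and 2; 2.72%). The list counts use the brightest probe of each gene, while the shares cover all 41174 probes, dim ones included, so they are not like for like. The median log2 fold changes of the 100 genes were 0.01, -0.03, 0.05 and 0.04, where those of all probes lay between -0.01 and 0.00. In males the 4 contrasts called 0, 0, 0 and 1 (0.0971%, 0.0753%, 0.0267% and 0.369% of all probes). In females they called 1, 1, 0 and 3 (0.155%, 0.158%, 0.0219% and 0.556%).

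The lists that follow in this paragraph gave 0 calls in the averaged contrasts. Of all probes, 0.95% passed for hypo minus control, 0.692% for hyper minus control, 0.585% for hypo+ minus control and 2.72% for hypo+ minus hypo. A count of 0 in lists this short is near these shares, and nothing is read from it. Of 20 measured genes of mitochondrial fatty acid oxidation, limma called 0 in any averaged contrast, with 2, 0, 1 and 2 at an unadjusted p under 0.05, and the median change was 0.02 in hypo and -0.03 in hyper pups. The largest hypo changes in this list were -0.13 ± 0.06 for Etfdh (adjusted p = 0.527), which feeds electrons to ubiquinone, and 0.12 ± 0.06 for Hadhb (0.65), a subunit of the trifunctional protein. Ketone body synthesis had 0 of 4 called in limma (0 at an unadjusted p under 0.05 in each contrast), with a median change of -0.02 in hypo and -0.04 in hyper pups. Microsomal omega oxidation had 0 of 6 called (0, 1, 0 and 0 unadjusted), with 0.14 ± 0.09 for Aldh3a2 and 0.07 ± 0.11 for Cyp4a14, a classical PPAR alpha target. The FGF21 receptor list had 0 of 5 called (1, 2, 2 and 0 unadjusted), with 0.19 ± 0.08 for Fgfr2 and 0.13 ± 0.22 for Klb, the co-receptor.

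The peroxisomal list (21 measured) gave 1 call higher in hypo pups, 1 lower in hyper pups, and 1 in each direction for hypo+ minus hypo. The shares of all probes for these contrasts were 0.95%, 0.692% and 2.72%. Nudt19, which like Nudt7 encodes a peroxisomal coenzyme A hydrolase, rose in hypo pups by 0.39 ± 0.08 (adjusted p = 0.00421, limma), opposite in sign to Nudt7. Its means were 1.52 ± 0.21 in control and 1.94 ± 0.21 in hypo males (SD, n = 4 and 4) and 1.52 ± 0.11 and 1.88 ± 0.10 in females (n = 4 and 5), and every hypo pup lay above all control pups. Without the 6 arrays with high acinar or adipocyte markers the change of Nudt19 was 0.36 and no longer passed (adjusted p = 0.0798, limma). With median centring its log2 fold change was 0.38, which did not pass either. Decr2, the peroxisomal dienoyl-CoA reductase, rose from hypo to hypo+ pups by 0.37 ± 0.08 (adjusted p = 0.00887, limma). This call was lost with the slide as a term (0.0584), with the Cy5 channel alone (0.0713) and with median centring (0.84). Crot, which hands medium-chain products on to carnitine, fell by 0.30 from hypo to hypo+ pups (adjusted p = 0.0093, limma). That fall did not pass with the normexp background correction (0.103), with the Cy5 channel alone (0.0519) or with median centring (0.493). Crot also fell by 0.26 in hyper pups (adjusted p = 0.0396), a call that was lost when any 1 of 13 arrays was left out (adjusted p = 0.0517 to 0.109), namely control females 394, 523 and 882, control males 522 and 832, hyper females 585, 621, 783 and 861 and hyper males 498, 583, 696 and 864. That call was also lost with Cy5 alone and with median centring (adjusted p = 1 for both), with normexp (0.438), with the deposited log10 ratio (0.11), with the scan day as a term (0.051) and without the 6 arrays with high markers (0.176). The largest hypo change of this list by size was that of Hacl1, an enzyme of alpha-oxidation, at -0.61 ± 0.60 (adjusted p = 1).

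Of the PPAR partners and coregulators (16 measured), limma called 1 higher and 1 lower in hypo pups and 1 higher in hyper pups. It called 2 higher in each of hypo+ minus control and hypo+ minus hypo. The shares of all probes for these 4 contrasts were 0.95%, 0.692%, 0.585% and 2.72%. Ppargc1b encodes PGC-1 beta, a coactivator of nuclear receptors that promotes mitochondrial gene expression. Its log2 ratio was 0.91 ± 0.23 in control, 0.27 ± 0.21 in hypo, 1.21 ± 0.18 in hyper and 1.49 ± 0.40 in hypo+ males (SD, n = 4, 4, 5 and 4), and 0.80 ± 0.12, 0.11 ± 0.11, 1.02 ± 0.15 and 1.35 ± 0.25 in females (n = 4, 5, 5 and 3). The highest hypo pup (0.45) lay below the lowest control pup (0.61), and the hypo+ pups (1.16 to 2.05) lay above all hypo pups. Averaged over the sexes it fell by 0.66 in hypo pups (adjusted p = 0.000437, limma; 0.198 with median centring). It stood 1.23 ± 0.11 higher in hypo+ than in hypo pups (2.34-fold; adjusted p = 9.34e-09), which also passed in males (1.22, 0.00234) and in females (1.24, 2e-05). Hyper minus control was 0.26 ± 0.10 (0.464). Hypo+ minus control was 0.56 ± 0.11 (0.0133), a call that was lost without hypo+ female 601 (0.49, 0.0839) and without the 6 arrays with high markers (0.12). It was also lost with the slide as a term (0.178), with the Cy5 channel alone (0.122) and with median centring (0.946).

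Pparg, the receptor best known from adipocytes, rose in hypo pups by 0.37 ± 0.09 (adjusted p = 0.0392, limma). The adipocyte markers were high in hypo male 311 and hyper female 499. Pparg means were 1.18, 1.54 and 1.15 in control, hypo and hyper males and 1.22, 1.60 and 1.01 in the same female groups. Whether adipocyte cells played a part was not tested. Without the 6 arrays with high markers, 4 of them set apart by acinar markers, the change of Pparg was 0.27 (0.615). Its call was also lost with median centring, with the slide or the scan day as a term (0.0665 and 0.0509) and when any 1 of 12 pups was left out (0.0539 to 0.101), namely control females 523, 831 and 882, control males 391, 522 and 832, hypo females 316, 721 and 743 and hypo males 311, 576 and 723. Lpin1, a phosphatidate phosphatase that also coactivates PPAR alpha, had the largest hypo change of the coregulators by size, at -0.97 ± 0.40, without passing (0.442).

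Of the genes for uptake, activation and storage of fatty acids (19 measured), G0s2 was called. Its product inhibits the lipase that opens lipid droplets. G0s2 fell by 0.61 in hyper pups (adjusted p = 0.0231, limma) and stood 0.61 lower in hypo+ than in hypo pups (log2 fold change -0.61 ± 0.14, adjusted p = 0.0138). The first call was lost without control female 831, control male 391, control male 832, hyper male 583 or hyper male 696 (0.0503 to 0.0618), and the second without hypo+ female 601 (-0.44, 0.0997) and with the slide as a term (0.0584). Both were lost with normexp (0.131 and 0.0547) and with median centring (0.775 and 0.14). Angptl4, a secreted inhibitor of lipoprotein lipase and a PPAR target, had -0.67 ± 0.28 in hypo and -0.84 ± 0.27 in hyper pups (0.447 and 0.23), and Cidec, a lipid droplet protein, 0.47 ± 0.16 in hypo pups (0.255).

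Around Pdk4, in the pyruvate dehydrogenase list (9 measured of 10), the genes called were Pdp1 and Pdhb. Pdp1 encodes a phosphatase that opposes the kinases. Its probe was dim, with group medians of the Cy5 signal from 159.5 (hypo males) to 312 (hyper females). Pdp1 rose in hyper pups by 0.60 ± 0.07 (adjusted p = 4.55e-06, limma), with means of -0.82 ± 0.13 and -0.37 ± 0.21 in control and hyper males (SD, n = 4 and 5) and -0.87 ± 0.11 and -0.11 ± 0.14 in females (n = 4 and 5). The hyper females (-0.32 to 0.05) and the hyper males (-0.66 to -0.12) lay above the control pups of their sex. The hypo means of Pdp1 were -1.11 ± 0.17 in males and -0.92 ± 0.13 in females (SD, n = 4 and 5), and hypo minus control did not pass. From hypo to hypo+ pups Pdp1 rose by 0.31 ± 0.07 (0.0174), a call lost without hypo+ female 763 (0.0572), without the 6 arrays with high markers (0.0668) and with median centring (0.859). Pdhb, a subunit of the dehydrogenase itself, fell by 0.27 in hypo pups (0.0392) and rose by 0.29 ± 0.07 from hypo to hypo+ pups (0.0115). Its fall was lost when any 1 of 11 pups was left out (0.0542 to 0.0936), namely control females 523 and 831, control males 391, 522 and 832, hypo females 316, 721 and 743 and hypo males 311, 576 and 891, and without the 6 arrays with high markers neither call passed (0.496 and 0.0994). The rise from hypo to hypo+ pups also failed with the slide as a term (0.0722) and with median centring (0.859). The fall failed with the scan day as a term (0.0513), with the normexp correction (0.194), with the authors' values (0.0817) and with median centring. Dlat, another subunit, had -0.21 ± 0.05 in hypo pups (0.0508).

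**Figure D5:**
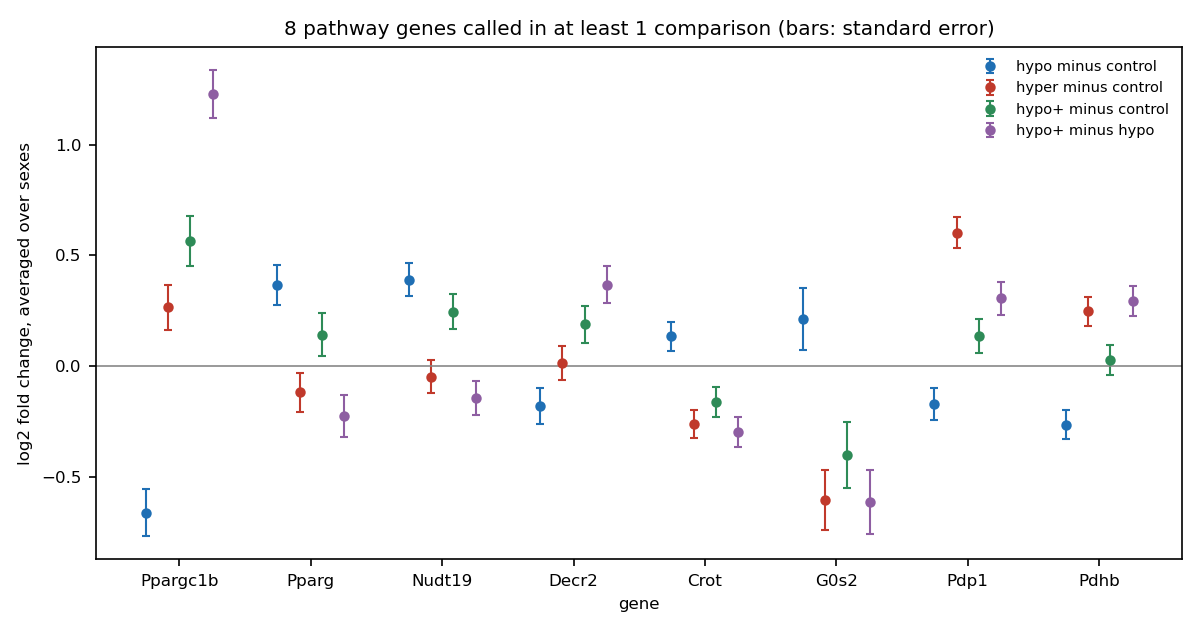
Log2 fold change averaged over the sexes (y axis) of 8 pathway genes called in at least 1 comparison, with 4 comparisons as colours and bars for the standard error. Ppargc1b spans the widest range, from -0.66 in hypo minus control to 1.23 in hypo+ minus hypo, and Pdp1 is highest in hyper minus control at 0.60.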

How the data were processed

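Liver RNA of 34 pups was measured on 34 two-colour Agilent arrays on 11 slides, scanned on 6 days, with Cy5 for the pup and Cy3 for a universal reference, and no dye swap. The deposited scanner files hold median intensity values per spot and channel, made by the authors with Agilent Feature Extraction, and a deposited log10 ratio, which was used as an alternative only. A deposited series table holds the authors' normalized log2 ratios of the same arrays. Its scale was inferred from the scanner values, and it too served as an alternative.

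Log2 ratios (Cy5 over Cy3) were formed from the median intensities and adjusted by loess, array by array, with control spots at weight 0 and spots marked as outliers left out, and spots of a probe were averaged (41174 probes, 43379 spots per array). Of 33541 systematic names, 16806 were paired with a symbol through RefSeq. The array number limits the precision. The labels do not say which pups were raised together. By the litters inferred from the animal numbers, pups of the same sex and group all came from different litters. The p-values within a sex therefore measure the spread between pups of different inferred litters. Goitrogens were given to the dams.

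The contrasts were fitted with limma 3.58.1 (R 4.3.3) on all probes within each sex, with 4 groups of 17 arrays. Averages over the sexes, sex and interaction used 8 groups with litter as a random block, taken from the start of each animal number (20 litters, correlation 0.0714). Adjusted p-values follow Benjamini and Hochberg over all probes, with a threshold of 0.05. Intervals cover 95%. Correlations used scipy 1.17.1, numpy 2.4.6 and pandas 2.3.3 in Python 3.11.15, and figures matplotlib 3.10.9. The fits were tested on simulated data.

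The 8 genes and all lists were chosen with earlier results of these data known. Every probe of the 8 genes is named, with every pathway gene called in an averaged or single-sex contrast, the 2 genes per list with the largest hypo change, the thyroid and marker lists, and the 5 probes most like Abcd3 and Nudt7. Alternatives were the normexp background correction (offset 50), a filter on dim probes (5% trimmed mean plus 3 SDs of 153 negative control spots), median centring in place of loess, the deposited ratios, the Cy5 channel alone, marked spots kept, slide or scan day as a block, other sets of groups, and leaving out each array. Leaving out 6 arrays with high acinar or adipocyte markers was added after the data were seen. Arrays that the study removed as outliers were not analysed here, and some genes that enter the list counts are not reported here.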

Additional observations from a re-analysis of the deposited data

Results flagged for a closer look

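Among the 147 groups of 4 or 5 pups (21 probes or genes), 11 held a pup set apart from the rest of its group by Dixon's criterion, where chance gives about 1 in 20. The highest pup stood apart for Ppara in hypo female 721 (4.57, others 3.61 to 3.88), for the brighter Cpt1a probe in hypo male 576 (3.40, others 3.16 to 3.18), and for Abcd3 probe 1 in hyper male 784 (3.64, others 3.40 to 3.44) and hyper female 861 (3.48, others 3.43 to 3.45). The same held for Abcd3 probe 3 in control male 391 (1.46, others 1.16 to 1.17), for the brighter Nudt7 probe in hypo+ male 454 (5.10, others 4.45 to 4.54) and for the dimmer one in hyper female 585 (4.45, others 4.12 to 4.18). Pups 721, 576, 784 and 585 were scanned on the day on which Ppara and Ehhadh were at their highest in every group.

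Of the pathway genes, Decr2 was low in hyper male 864 (1.67, others 2.07 to 2.23) and Nudt19 in control female 523 (1.36, others 1.55 to 1.59). Control female 831, whose acinar markers were high, stood apart for G0s2 (2.92, others 2.61 to 2.65). Pdhb was high in hypo male 723 (0.93, others 0.63 to 0.67).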

How the results depend on the processing

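No called log2 fold change of the 8 genes changed sign under any alternative, but of the gene pairs Nudt7 and Acadm (r = -0.54) turned to 0.60 and Pdk4 and Nudt7 (rho = -0.50) to 0.44 with median centring. Median centring left the dependence of the ratio on intensity in place and cut the calls most. It gave 0 member probes in hyper minus control (averaged, males and females), 2 in hypo minus control (averaged; 0 in each sex) and 3 in hypo+ minus hypo (averaged; 0 in each sex), 1, 0, 0 and 1 pathway genes in hyper minus control, hypo minus control, hypo+ minus control and hypo+ minus hypo, and 26 of 28 gene pairs. The other settings moved fewer counts. In hypo minus control the averaged count was 3 with the deposited log10 ratio, with normexp and without the 6 arrays with high markers. In females it was 1 with Cy5 alone and with the 2 compared groups only. In males it was 2 with Cy5 alone, with both sexes in 1 fit, with dim probes left out and with the slide as a random block, and 0 with normexp, the 2 compared groups only, scan day, slide as a fixed block and without the high-marker arrays. In hyper minus control the averaged count was 1 without the high-marker arrays. In males it was 0 with Cy5 alone, the log10 ratio, normexp, scan day, slide as a fixed block and without those arrays. In females it was 0 with the log10 ratio and without those arrays, 2 with both sexes in 1 fit, the 2 compared groups only, dim probes left out and slide as a random block, and 3 with scan day or slide as a fixed block. Pathway calls were 2 in hyper minus control with normexp, and without the high-marker arrays 1 in hypo minus control and 0 in hypo+ minus control.

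Leaving out each array gave 2 to 4 member probes (averaged), 0 to 1 (males) and 0 to 2 (females) in hyper minus control, 4 to 5, 0 to 2 and 3 to 3 in hypo minus control, 5 to 6, 2 to 4 and 3 to 3 in hypo+ minus hypo, and 0 in hypo+ minus control, sex and interaction. No paired analysis was possible because no animal number recurs between groups. Slide, scan day and litter, which do recur, served as blocks instead, but not together. The averaged fits with the slide or the scan day as a term left the litter block out.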
